A study of Mus musculus with 2 samples.

Results

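Type I interferon antiviral genes were measured in the single-cell RNA sequencing (scRNAseq) of NOD/ShiLtJ (NOD) and CD1 mouse salivary glands. The genes were *Ifit1*, *Ifit2*, *Ifit3*, *Isg15*, *Usp18*, *Mx1*, *Mx2*, *Oasl2*, *Rsad2* and *Irf7*. They were taken by their symbols, and all 10 were among the 50768 genes listed for both libraries. There was 1 library per strain, made from pooled glands of 20-week-old females, and none of the mice was treated. NOD is an inbred strain that develops diabetes and lymphocytic infiltrates in its salivary glands, and CD1 is an outbred strain used as the control. The study does not give the blood glucose of the pooled mice. The study's methods give 4 mice per pool and the sample labels give 3. Epithelial and red blood cells were depleted with EpCAM and Ter119 antibodies, so the libraries describe the stromal and immune cells that were left. Strain and library cannot be told apart, and no difference between them could be tested.

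Type I interferons bind the receptor made of *Ifnar1* and *Ifnar2*, and the kinases *Jak1* and *Tyk2* then activate *Stat2*. A complex that holds *Stat2* and *Irf9* binds a short DNA element, the interferon-stimulated response element, in the promoters of antiviral genes. The encoded proteins block viral RNA, protein synthesis or replication, and an interferon signature of such genes is well known in Sjögren's disease. Many of these genes also respond to interferon-gamma, and a part of them to type III interferons, so their transcripts do not by themselves identify the ligand.

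The response element was looked for on both strands as GAAA, any 2 bases and GAAA again, in the 300 bases around each start site of the RefSeq promoter table (GRCm38.p6), which differs from the build GRCm39 named in the submitters' processing notes. Of the 10 genes, 7 had a promoter in the table. The letters were found in 4 of these 7 genes (57.1%), in 13 of 34 other interferon-stimulated genes (38.2%) and in 1079 of all 27025 genes (3.99%). The matching stretches of the 4 genes are shown, since the choice of genes did not use sequence. Capitals mark the matches, written 5′ to 3′ on the strand of the gene, where TTTC, any 2 bases and TTTC is the same element read on the other strand.
Ifit1: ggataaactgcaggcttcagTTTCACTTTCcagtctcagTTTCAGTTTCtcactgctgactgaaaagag
Ifit3: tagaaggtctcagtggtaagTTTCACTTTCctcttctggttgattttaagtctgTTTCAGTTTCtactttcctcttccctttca
Isg15: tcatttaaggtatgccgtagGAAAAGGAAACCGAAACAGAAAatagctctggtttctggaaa
Rsad2: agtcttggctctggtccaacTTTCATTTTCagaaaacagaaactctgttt

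The *Ifit1* stretch lies at chr19:34640765-34640833 on the plus strand, with the matches from 104 to 95 and from 85 to 76 bases before the start. The *Ifit3* stretch lies at chr19:34583353-34583436 on the plus strand, with the matches from 156 to 147 and from 122 to 113 bases before the start. *Ifit1* and *Ifit3* thus carry the same pair of 10-letter matches in the same order. The *Isg15* stretch lies at chr4:156200855-156200916 on the minus strand and holds 3 overlapping matches between 78 and 57 bases before the start. The *Rsad2* stretch lies at chr12:26456543-26456592 on the minus strand, with 1 match from 120 to 111 bases before the start. No match was in the windows of *Ifit2*, *Oasl2* and *Irf7*. A match of letters is a description of the sequence and not evidence of binding.

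The NOD library held 52790319 UMIs (unique molecular identifiers, which count captured RNA molecules) and the CD1 library 56483149. Barcodes with at least 500 UMIs and 300 genes were kept, 6500 in NOD and 7014 in CD1. The median depth was 5719.5 UMIs in NOD and 6495 in CD1, and 18 kept barcodes occurred in both libraries. A barcode was placed in a lineage when that lineage's markers held at least 2/3 of all its marker UMIs, and 27.5% of the NOD and 10.2% of the CD1 barcodes were placed in none. In the T, natural killer (NK), macrophage and endothelial lineages all 6 of 6 defining markers had UMIs in both libraries. Summed levels of a lineage's own markers ranged from 3134 to 12384 per 1000000 UMIs in NOD and from 3076 to 12387 in CD1. Markers of all other lineages took a median of 0.0455% to 0.0907% of the UMIs of a NOD barcode and 0.0261% to 0.112% in CD1.

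Levels below are UMIs of a gene summed over the barcodes of a lineage, per 1000000 UMIs of that lineage (CPM). Log2 ratios are NOD over CD1. Intervals are exact 95% intervals that cover counting error only and leave out the spread between cells and between mice. Levels are compared between lineages and strains but not between genes. Since RNA was summed over barcodes, a higher level can come from more barcodes that express a gene or from more RNA in each, and the later paragraphs separate these as far as the depth allows.

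The 10 genes were higher in NOD in all 4 lineages that held at least 50 barcodes in both libraries. In the endothelial lineage their summed level was 1112 CPM in NOD (1086 to 1139, 1069 barcodes) and 434 in CD1 (425 to 443, 2873 barcodes), a log2 ratio of 1.36 (1.31 to 1.40). The macrophage lineage stood at 727 in NOD (701 to 753, 714 barcodes) and 243 in CD1 (236 to 250, 2928 barcodes), a log2 ratio of 1.58 (1.52 to 1.65). NK barcodes stood at 321 in NOD (303 to 339, 445 barcodes) and 112 in CD1 (102 to 124, 320 barcodes), a log2 ratio of 1.51 (1.35 to 1.68). The T lineage stood at 284 in NOD (275 to 295, 1550 barcodes) and 110 in CD1 (85.7 to 139, 76 barcodes), a log2 ratio of 1.37 (1.02 to 1.73). By summed level the order of lineages in NOD was thus endothelial, macrophage, NK and T, with no overlap of the counting intervals. The order of NK and T was not kept in other readings of the NOD library. With a limit of 9/10 of marker UMIs, NK stood at 271 CPM and T at 297. Among barcodes under 3 of the genes, described below, NK stood at 199 and T at 216. In CD1 the endothelial lineage was again the highest and the macrophage lineage the next, whereas the NK and T intervals overlapped.

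Single genes were read against all genes of the lineage. A gene counted as past 2-fold with a log2 ratio of at least 1 and at least 20 UMIs over both libraries. In the macrophage lineage 10 of the 10 genes were past 2-fold higher in NOD, beside 8.29% of the 14630 genes measured there. In the NK lineage 9 of 10 were, beside 5.15% of all genes. The endothelial lineage had 7 of 10, beside 8.06%, and the T lineage 7 of 10, beside 15.1%. Of these 7 T-lineage genes, *Ifit3*, *Mx2*, *Oasl2* and *Rsad2* each held 1 UMI in CD1, and they also raise the T median given below. The T lineage held 11055094 UMIs in NOD and 626094 in CD1, so a gene can reach 20 UMIs there through NOD alone. None of the 10 genes was past 2-fold lower in any of the 4 lineages, beside 5.83%, 4.6%, 3.97% and 5.12% of all genes in the same order. The median log2 ratio of the 10 genes was 1.57 in the macrophage, 1.47 in the NK, 1.25 in the endothelial and 1.85 in the T lineage, and that of all genes was 0.07, 0.02, 0.08 and 0.14.

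**Figure D1:**
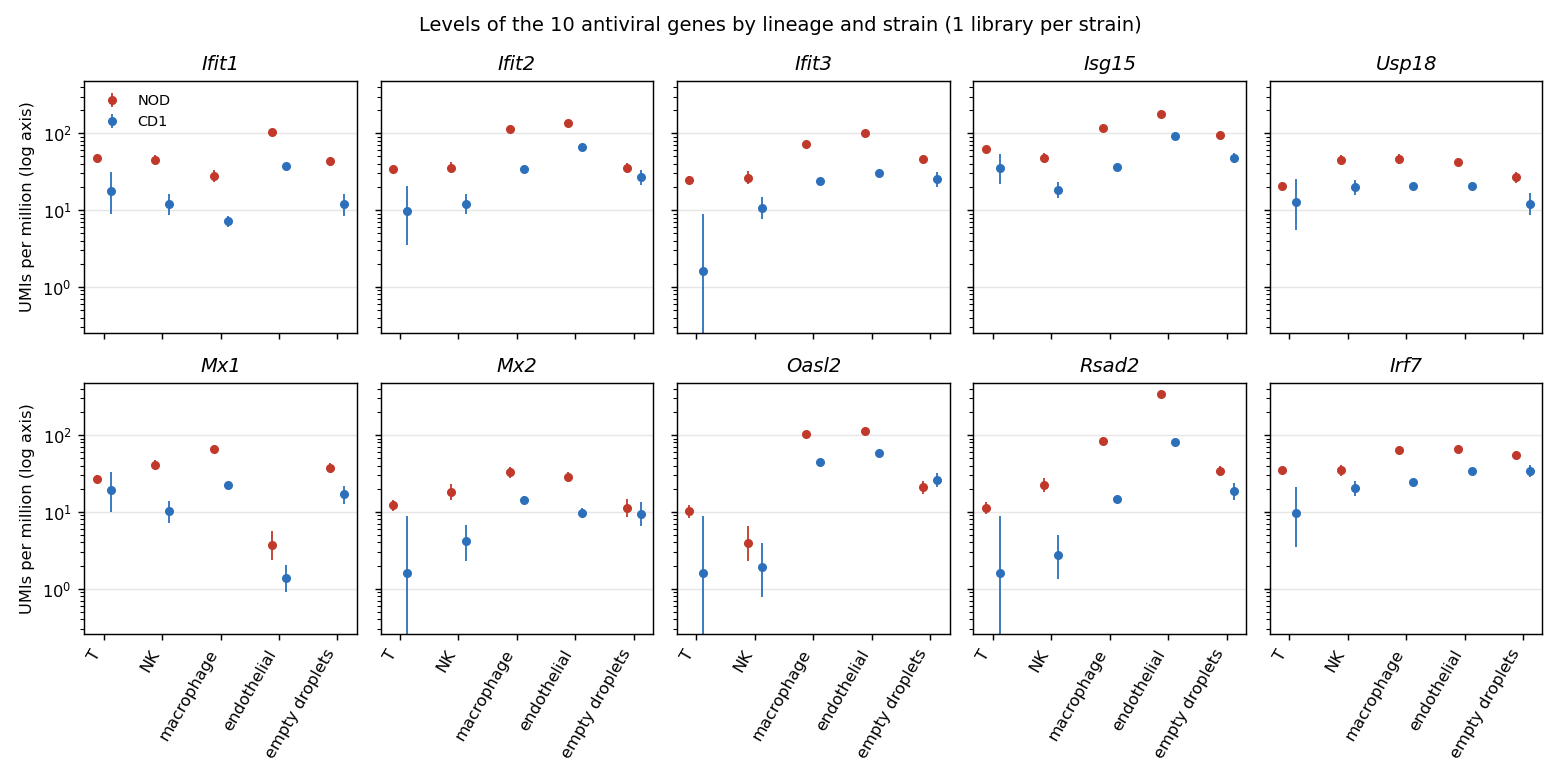
UMIs per 1000000 (log axis) of each of the 10 genes in the T, NK, macrophage and endothelial lineages and in empty droplets. Red points are the NOD library, blue points the CD1 library, and bars are exact 95% Poisson intervals, some of which run below the axis for the 4 genes with 1 CD1 T-lineage UMI. NOD lies above CD1 for every gene in these 4 lineages, and *Mx1* is lowest in the endothelial lineage.

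The *Ifit* genes encode proteins that bind viral RNA and hinder its translation, with *Ifit1* recognising RNA that lacks the cap structure of the host. Endothelial levels of *Ifit1* were 105 CPM in NOD and 37.6 in CD1 (log2 ratio 1.48, 1.32 to 1.63). Its macrophage levels were 28.0 and 7.15 (1.97, 1.61 to 2.33), its NK levels 44.5 and 11.8 (1.91, 1.42 to 2.42) and its T levels 47.5 and 17.6 (1.43, 0.58 to 2.45). *Ifit1* was therefore lower in the macrophage lineage than in the T and NK lineages of the same library, unlike the sum of the 10 genes. *Ifit2* went with the sum, at 138 and 65.8 CPM in the endothelial lineage (1.07, 0.94 to 1.19) and 114 and 34.2 in the macrophage lineage (1.74, 1.57 to 1.91). Its T and NK levels were 33.8 and 35.7 in NOD and 9.58 and 12.1 in CD1, with intervals that overlap within each strain.

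*Ifit3*, which acts in a complex with the other Ifit proteins, had endothelial levels of 99.5 CPM in NOD and 29.9 in CD1 (1.73, 1.57 to 1.90). Its macrophage levels were 71.4 and 23.9 (1.58, 1.37 to 1.79) and its NK levels 26.5 and 10.7 (1.30, 0.76 to 1.87). In the T lineage it held 274 UMIs in NOD and 1 in CD1, so its log2 ratio of 3.96 has an interval from 1.47 to 9.26. Reads of *Ifit3* can also come from its near-identical neighbour *Ifit3b*, and no source used here says how the counting divided them.

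*Isg15* encodes a ubiquitin-like protein that is attached to other proteins, and *Usp18* encodes the protease that removes it and that also dampens signalling at *Ifnar2*. Endothelial levels of *Isg15* were 178 CPM in NOD and 93.1 in CD1 (0.93, 0.82 to 1.04). Macrophage levels were 118 and 36.0 (1.71, 1.54 to 1.88), and NK levels 48.2 and 18.5 (1.39, 0.98 to 1.81). T-lineage levels were 62.6 and 35.1 (0.83, 0.22 to 1.52). The macrophage ratio of *Isg15* was thus larger than its endothelial ratio, and the counting intervals of the 2 ratios do not overlap. *Usp18* was close to equal across lineages within each strain apart from T, at 42.1, 46.4 and 45.5 CPM in the NOD endothelial, macrophage and NK lineages and 20.8, 20.7 and 19.8 in CD1. In the T lineage it stood at 20.3 in NOD and 12.8 in CD1, and the interval of its log2 ratio (0.67, −0.34 to 1.89) included 0.

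*Mx1* and *Mx2* encode dynamin-like GTPases that trap viral nucleoproteins. *Mx1* was nearly missing from the endothelial lineage, with 23 UMIs (3.76 CPM) in NOD and 27 (1.39) in CD1. These levels were 10.0% and 8.19% of those in empty droplets of the same library, barcodes with 10 to 100 UMIs that stand for free RNA. In the macrophage lineage *Mx1* stood at 66.5 in NOD and 22.6 in CD1 (1.56, 1.34 to 1.77), and in the NK lineage at 40.7 and 10.2 (2.00, 1.48 to 2.55). Its T-lineage levels of 26.7 and 19.2 were within counting error of each other (0.48, −0.35 to 1.45). *Mx2*, in contrast, was present in endothelial barcodes at 28.5 and 9.70 CPM (1.55, 1.25 to 1.86), beside 33.0 and 14.4 in the macrophage lineage (1.20, 0.89 to 1.49). In the NK lineage *Mx2* stood at 18.2 and 4.13 (2.14, 1.33 to 3.05), and in the T lineage it held 135 UMIs in NOD and 1 in CD1 (2.93, 0.43 to 8.25).

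*Oasl2*, a relative of the oligoadenylate synthetases that sense double-stranded RNA, separated the lymphoid lineages from the others. Its endothelial levels were 113 CPM in NOD and 59.3 in CD1 (0.93, 0.79 to 1.07) and its macrophage levels 102 and 45.2 (1.18, 1.01 to 1.34). In the T lineage it stood at 10.2 in NOD, with 1 UMI in CD1 (2.68, 0.17 to 7.99). In the NK lineage its 4.00 and 1.93 CPM could not be told apart by counting (1.05, −0.31 to 2.57). Over all kept barcodes *Oasl2* was lower in NOD, at 36.8 against 45.0 CPM (−0.29, −0.39 to −0.20), although it was higher in NOD within each of the 4 lineages. The 2 lineages with high *Oasl2*, macrophage and endothelial, took 714 and 1069 of the 6500 NOD barcodes and 2928 and 2873 of the 7014 CD1 barcodes.

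*Rsad2* encodes viperin, an enzyme that makes a nucleotide which ends viral RNA chains. It had the largest ratio of the 10 genes in the NK, macrophage and endothelial lineages. Its endothelial level was 339 CPM in NOD (2071 UMIs) and 82.0 in CD1 (1599 UMIs), a log2 ratio of 2.05 (1.95 to 2.14). Its macrophage levels were 83.9 and 14.6 (2.53, 2.30 to 2.76) and its NK levels 22.5 and 2.75 (3.03, 2.08 to 4.14). The T lineage held 125 UMIs in NOD and 1 in CD1 (2.82, 0.32 to 8.14). Without *Rsad2*, the endothelial log2 ratio of the summed genes was 1.14 in place of 1.36.

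*Irf7* encodes the transcription factor that amplifies the response by driving interferon-alpha genes. Its endothelial levels were 65.9 CPM in NOD and 34.3 in CD1 (0.94, 0.76 to 1.12) and its macrophage levels 63.4 and 24.3 (1.39, 1.17 to 1.60). In the NK lineage it had the smallest ratio of the 10 genes there, 35.0 and 20.4 (0.78, 0.36 to 1.21). Its T-lineage levels were 35.1 and 9.58 (1.87, 0.74 to 3.33). The highest level of *Irf7* in a NOD lineage was in 17 dendritic barcodes, at 243 CPM (185 to 314).

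**Figure D2:**
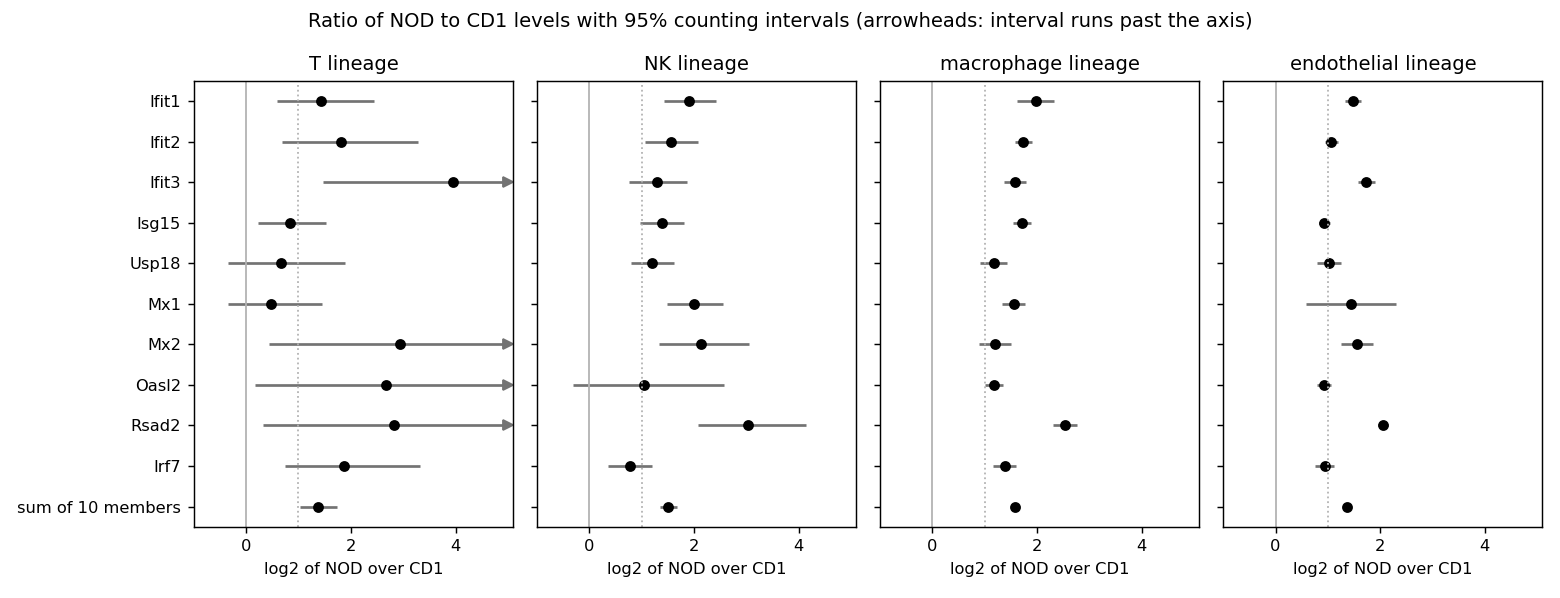
Log2 ratio of NOD over CD1 for each gene and for the sum of the 10, 1 panel per lineage. Points are ratios of summed UMIs, bars are 95% conditional binomial intervals (counting error only), arrowheads mark intervals that run past the axis, and the dotted line marks 2-fold. All points lie above 0, and the intervals that reach 0 are those of *Usp18* and *Mx1* in the T lineage and *Oasl2* in the NK lineage.

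Lineages with fewer barcodes were described by their levels. The highest summed level of all was in neutrophil barcodes, on few UMIs. It was 1736 CPM (1144 to 2525) in 5 NOD and 890 (498 to 1468) in 4 CD1 barcodes. Plasmacytoid dendritic barcodes stood lower in NOD, at 163 (97.9 to 254, 10 barcodes) beside 251 (51.8 to 733, 1 barcode), with overlapping intervals. Barcodes placed in no lineage stood at 369 in NOD and 193 in CD1. NOD B barcodes (775) had a low summed level of 87.1 CPM (78.7 to 96.1), and the 8 CD1 B barcodes held 1 UMI of the 10 genes. NOD plasma barcodes (53) stood at 140 and CD1 plasma barcodes (13) at 39.0. NOD dendritic barcodes stood at 639 (542 to 748), an interval that overlaps that of the NOD macrophage lineage. The 57 NOD fibroblast barcodes stood at 597 (537 to 663), between the macrophage and NK lineages.

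Free RNA also differed between the libraries. In empty droplets the 10 genes summed to 406 CPM for NOD and 229 for CD1. From the salivary secretory genes found in each lineage, free RNA was estimated as 17.7%, 3.12% and 20.4% of the UMIs of NOD T, NK and endothelial barcodes, and 2.17%, 1.44% and 2.70% in CD1. NOD macrophage barcodes held more secretory RNA (364 CPM) than the empty droplets (264), which sets the estimate to its limit of 100%, beside 22.6% in CD1. Subtracting these shares gave a macrophage log2 ratio of 0.75 in place of 1.58, with *Isg15* at −0.21 and *Irf7* at −0.95 and 3 genes past 2-fold. An estimate from immunoglobulin transcripts (*Igha* and *Igkc*), chosen after seeing the data, was 1.72% and 0.886% of macrophage UMIs and gave a log2 ratio of 1.58. The immunoglobulin shares of NOD T, NK and endothelial barcodes were 1.60%, 1.31% and 1.70%. In the NOD endothelial lineage *Mx1* stood at 10.0% of its empty-droplet level, below the secretory estimate of 20.4%. In the CD1 endothelial lineage its 8.19% lay above the secretory estimate of 2.70%. *Igha* and *Igkc* summed to 7163 CPM in NOD empty droplets, and to 115 in NOD T and 123 in NOD macrophage barcodes. The macrophage markers stood at 12384 CPM in the NOD and 12386 in the CD1 macrophage lineage. Which estimate is nearer was not tested.

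The NK result depended on how barcodes were placed. Of the NOD NK barcodes 273 and of the CD1 NK barcodes 118 lay within 0.1 of the limit of 2/3. With a limit of 9/10 the summed level was 271 CPM in NOD (103 barcodes) and 253 in CD1 (68 barcodes), a log2 ratio of 0.10 (−0.19 to 0.38), and 1 of the 10 genes was past 2-fold. Among NK barcodes without a UMI of the T markers the levels were 242 (99 barcodes) and 256 (70 barcodes), a log2 ratio of −0.080 (−0.43 to 0.26), and without the 3 and 2 of them that held 3 or more of the 10 genes after the drawing described below they were 131 and 89.9, a ratio of 0.54 (0.00 to 1.09). Among those with such a UMI they were 333 (346 barcodes) and 84.1 (250 barcodes), a ratio of 1.99 (1.79 to 2.19). T markers summed to 565 CPM in the NOD and 377 in the CD1 NK lineage, and their part in the ratio was not tested. A limit of 9/10 left 17 CD1 T barcodes with 22 UMIs of the 10 genes and gave the T lineage a ratio of 0.79 (0.18 to 1.47). With the T and NK markers taken as 1 lineage, the levels were 303 in NOD (2585 barcodes) and 107 in CD1 (458 barcodes).

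Whether the genes were raised in a few barcodes or in all was examined after drawing 1000 UMIs from each barcode, so that depth was equal. A small share of barcodes held several of the 10 genes. The barcodes without any drawn UMI of these genes also stood higher in NOD, although in the T and macrophage lineages this turned on the estimate of free RNA, as given with their levels. In the NOD T lineage 15.7% of 1547 barcodes held at least 1 of the 10 genes (13.9% to 17.6%), and 1.94% held at least 3 (30 barcodes, 1.31% to 2.76%). In the CD1 T lineage 6.58% of 76 barcodes held at least 1 (2.17% to 14.7%) and 0 of 76 held 3, which allows a share of up to 3.95% by a limit of 3 counts and 4.74% by the exact interval. The counting intervals of the strains overlap for both shares.

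In the endothelial lineage 46.5% of the NOD barcodes (43.3% to 49.6%) and 25.8% of the CD1 barcodes (24.2% to 27.5%) held at least 1 of the genes. At least 3 were held by 8.22% in NOD (81 of 986, 6.58% to 10.1%) and 2.24% in CD1 (60 of 2680, 1.71% to 2.87%). For macrophage barcodes these shares were 27.3% and 12.6% for at least 1, and 4.62% (30 of 649, 3.14% to 6.53%) and 1.19% (33 of 2772, 0.821% to 1.67%) for at least 3. NK shares were 15.9% and 6.88%, and 2.04% (9 of 441) and 0.938% (3 of 320), the last 2 with overlapping intervals. NOD B and plasma barcodes were the lowest, with 6.61% of 756 and 5.66% of 53 holding at least 1 gene. Before drawing, 50.1%, 51.2%, 55.7% and 77.9% of the NOD T, NK, macrophage and endothelial barcodes and 31.6%, 41.9%, 41.0% and 65.4% in CD1 held at least 1. Barcodes under 1000 UMIs were left out, at most 83 of a NOD and 193 of a CD1 lineage. Median depth before drawing was 3491 UMIs in NOD and 7056 in CD1 macrophage barcodes, and its part in the values that were not drawn to equal depth was not tested.

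**Figure D3:**
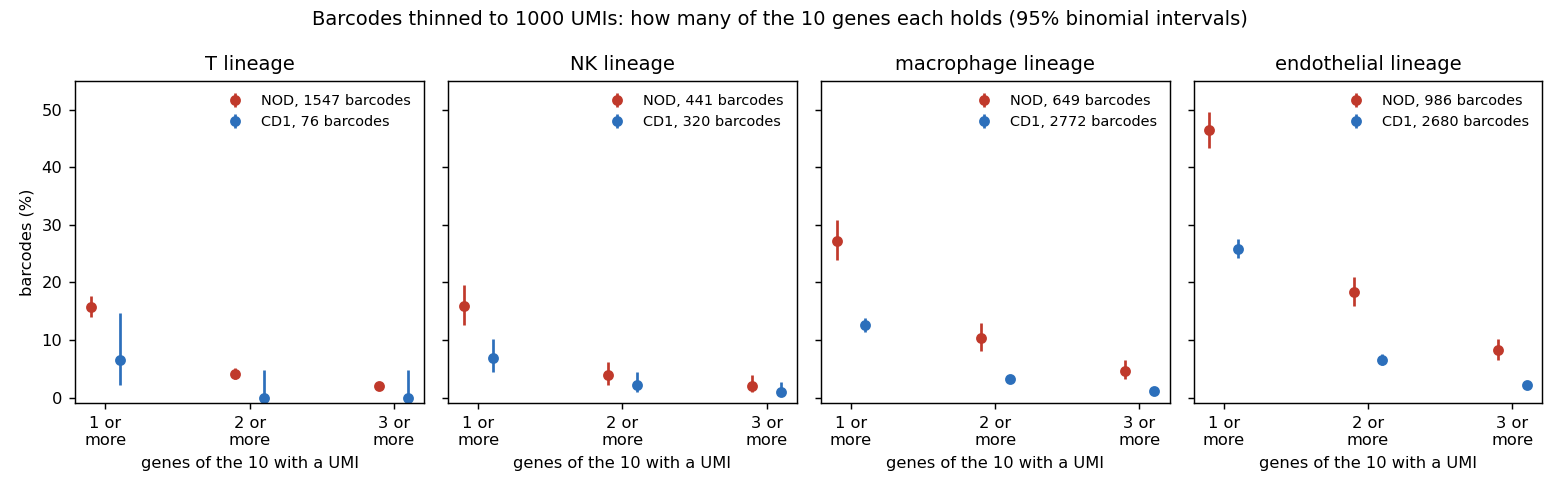
Percent of barcodes that held at least 1, 2 or 3 of the 10 genes after drawing 1000 UMIs, 1 panel per lineage. Red points are NOD and blue points CD1, with exact 95% binomial intervals and the number of barcodes in each legend. NOD lies above CD1 at each number of genes, with intervals apart in the macrophage and endothelial lineages, overlapping in the T lineage, and overlapping for 2 or more genes in the NK lineage.

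The number of genes per barcode is a range and not a cell type. In the NOD T lineage 33 barcodes lay just under the limit with 2 genes and 16 just over it with 3, and the largest number was 6. *Mx1* and *Ifit1* were drawn together in 9 NOD T barcodes. Barcodes with 3 or more genes did not have more marker UMIs of other lineages than the rest of the NOD T lineage (medians 0.0490% and 0.0574%), and their median depth was 7162 UMIs beside 6612. In the NOD macrophage lineage they had more (0.0667% and 0.0575%) at a depth of 7486 UMIs beside 4530, and in the NOD NK lineage 0.123% and 0.0907%. The part of these markers and of depth in the levels of the high barcodes was not tested. The 30 barcodes included 17 of 685 *Cd4* barcodes, 7 of 365 *Cd8* barcodes and 2 of 181 *Foxp3* barcodes, groups that were chosen after values had been seen.

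The UMIs that were not drawn gave a second measure of the same barcodes. In them, the NOD T barcodes with 3 or more genes had the 10 genes at 3539 CPM (3284 to 3808), and those under 3 at 216 (206 to 225), a 16.4-fold difference. *Ifit1* stood at 819 in the former and 31.8 in the latter, *Isg15* at 779 and 46.8, and *Mx1* at 333 and 19.2. The 30 barcodes, 1.94% of the lineage, held 26.2% of its undrawn UMIs of the 10 genes. The response was thus concentrated in these barcodes but most of the UMIs lay outside them.

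In NOD macrophage barcodes with 3 or more genes the sum stood at 6630.0 CPM beside 454 in those under 3, a 14.6-fold difference, and the former held 42.7% of the UMIs of these genes. *Rsad2* had the widest gap there, 1428 beside 24.9. In NOD endothelial barcodes the levels were 4789 and 835, a 5.73-fold difference, and 31.6% of the UMIs were in the 8.22% of barcodes with 3 or more. The endothelial lineage was thus the least uneven of the 4 in NOD by this measure. In the NOD NK lineage 9 barcodes at 5194 CPM held 40.9% of the UMIs, and the others stood at 199.

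CD1 had barcodes of the same kind. Its 33 macrophage barcodes with 3 or more genes stood at 5729 CPM beside 188 in those under 3, and its 60 endothelial barcodes at 3536 beside 364. They held 24.8% and 18.7% of the UMIs of the 10 genes. Among barcodes with 3 or more genes the log2 ratio of NOD over CD1 was 0.21 in the macrophage lineage (0.09 to 0.33), 0.44 in the endothelial (0.34 to 0.54) and 0.96 in the NK lineage (0.67 to 1.27, with 3 CD1 barcodes). Among barcodes under 3 it was 1.27 (1.18 to 1.36), 1.20 (1.14 to 1.26), 1.40 (1.19 to 1.62) and, in the T lineage, 0.89 (0.53 to 1.27). The strains were thus nearer to each other within the high barcodes than outside them in the macrophage and endothelial lineages, whereas the NK intervals overlapped. The same limit was used in both libraries, which by construction brings the high barcodes nearer to each other.

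Barcodes in which none of the 10 genes was drawn, which can still hold UMIs of them, were compared as well. Macrophage barcodes of this kind stood at 281 CPM in NOD (472 barcodes) and 128 in CD1 (2424 barcodes), a log2 ratio of 1.13 (1.01 to 1.26). Endothelial ones stood at 555 (528 barcodes) and 269 (1988 barcodes), a ratio of 1.04 (0.95 to 1.13). In the NK lineage the ratio was 0.90 (0.63 to 1.17) and in the T lineage 0.71 (0.27 to 1.17), from 139 in NOD and 85.3 in CD1. Free RNA of the shares estimated above from the secretory genes would hold 71.7 CPM of the 10 genes in NOD and 4.97 in CD1 T barcodes. Subtracting it left 67.5 and 80.4 CPM in the T barcodes without a drawn UMI, a log2 ratio of −0.25, so the direction turned. In the NOD macrophage lineage the 281 CPM lay below the 406 of the estimate of 100% and no ratio was left, whereas the NK and endothelial ratios were 0.80 and 0.84. With the immunoglobulin estimate the ratios were 0.68 in the T, 0.89 in the NK, 1.12 in the macrophage and 1.04 in the endothelial lineage. The higher NOD level was thus not limited to barcodes with 3 or more genes in the NK and endothelial lineages under either estimate, and in the T and macrophage lineages under the immunoglobulin estimate alone. For NK this holds at the limit of 2/3 of marker UMIs. In NK barcodes under 3 genes and without a T-marker UMI the ratio was 0.54, with an interval that starts at 0.00 (0.00 to 1.09). Leaving out the barcodes with 3 or more genes lowered the log2 ratio of the whole T lineage to 0.93 from 1.37, of the macrophage lineage to 1.25 and of the endothelial lineage to 1.16.

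**Figure D4:**
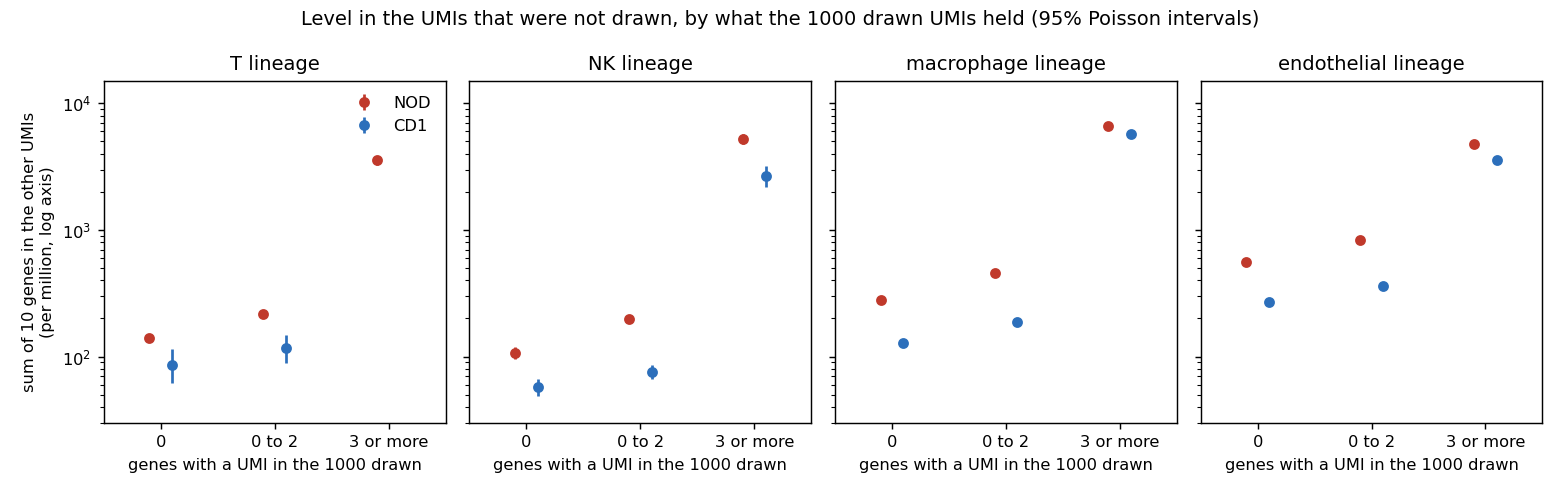
Summed level of the 10 genes (UMIs per 1000000, log axis) in the UMIs that were not drawn, for barcodes in which the 1000 drawn UMIs held 0, 0 to 2, or 3 or more of the genes. Red points are NOD, blue points CD1, bars are exact 95% Poisson intervals, and no CD1 T barcode held 3 or more. The gap between the strains is narrower at 3 or more than at 0 to 2 genes in the macrophage and endothelial lineages.

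The spread over barcodes was wider than that of the interferon-gamma inducible GTPases, the guanylate-binding (*Gbp*) and immunity-related (*Irgm*, *Igtp*, *Iigp1*) genes. In the NOD T lineage the 5% of barcodes with the most drawn UMIs of a list held 61.3% of the UMIs of the 10 antiviral genes and 25.9% of those of the 15 GTPase genes. In the NOD endothelial lineage these shares were 35.8% and 20.8%. The GTPase lists were more abundant, which by itself narrows such a share. The variance over barcodes beyond counting, divided by the squared mean, takes this into account and was 7.21 for the antiviral genes and 0.942 for the GTPase genes in NOD T barcodes. It was 4.88 and 2.25 in the NOD macrophage and 2.16 and 0.733 in the NOD endothelial lineage. The sum of the 44 other interferon-stimulated genes did not share the wide spread of the sum of the 10. Its values were 0.679, 0.651 and 0.295 in the NOD T, macrophage and endothelial lineages, below those of both lists. All these values are of the summed UMIs of a list, in which abundant genes weigh most. The spread of single genes was not computed. In the NOD NK lineage the values were 7.42 for the antiviral, 0.581 for the GTPase and 0.709 for the other interferon-stimulated genes.

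Other genes went with the 10 across the 1547 NOD T barcodes at 1000 UMIs. By Pearson correlation with their summed drawn UMIs, the 10 highest of 6663 genes were *Slfn5* (0.436), *Bst2*, *Rnf213*, *Ifi27l2a*, *Trim30a*, *Ifi203*, *Gm57827*, *Ly6a*, *Slfn1* and *Xaf1* (0.247). Of these 10, 5 were in the list of 44 other interferon-stimulated genes, whose share of the 6663 genes was not counted. Absence from this list does not mean that a gene fails to respond to interferon. In the undrawn UMIs *Slfn5* stood at 764 CPM in the 30 high NOD T barcodes and 55.8 in those under 3, and *Bst2*, the tetherin gene, at 541 and 109. Correlations between pairs of the 10 genes were low in these sparse counts, with a median of 0.112 in NOD T, 0.175 in NOD macrophage and 0.103 in NOD endothelial barcodes.

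The wider pathway was read from lists of ligands, receptors and signalling genes, sensors and other targets. No UMI of the interferon-alpha genes, *Ifnab*, *Ifne*, *Ifnz*, *Ifnl2* or *Ifnl3* was in any barcode of either library. *Ifnb1* held 0 UMIs in the kept NOD barcodes and 5 in CD1, all in the macrophage lineage. *Ifnk*, a type I interferon best known from keratinocytes, held 51 and 27. *Ifng*, the type II interferon, held 2798 and 297, with 113 and 28.7 CPM in the T lineage and 109 and 54.8 in the NK lineage. Apart from *Ifnk* and the few *Ifnb1* UMIs, transcripts of type I interferons were not detectable at this depth in either library.

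The receptor genes differed little between strains. Levels of *Ifnar1* for NOD and CD1 were 74.5 and 75.1 CPM in the T, 88.7 and 78.0 in the NK, 171 and 171 in the macrophage and 75.9 and 76.6 in the endothelial lineage, and the intervals of all 4 ratios included 0. *Ifnar2* had macrophage levels of 326 CPM in NOD and 418 in CD1 (−0.36, −0.44 to −0.28), and its intervals included 0 in the other 3 lineages. *Stat2*, which carries the signal to the nucleus, had log2 ratios of 1.30 in the macrophage and 1.12 in the endothelial lineage, and *Irf9*, its DNA-binding partner, 0.17 and 0.65.

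The sensor genes detect viral nucleic acid upstream of interferon. Past 2-fold higher in NOD were 3 of 10 measured in the T, 0 of 9 in the NK, 2 of 12 in the macrophage and 0 of 11 in the endothelial lineage, beside 15.1%, 5.15%, 8.29% and 8.06% of all genes. These counts are too small to set the sensors apart from all genes. The macrophage genes were *Rigi* (1.44) and *Ifih1* (1.21), both RNA helicases that are themselves interferon targets, and *Dhx58*, the third helicase, stood at 0.93. *Tlr7* was the sensor with the lowest endothelial ratio, with 2 UMIs in NOD and 18 in CD1. *Cgas* and *Sting1*, the DNA-sensing pair, had macrophage ratios of 0.00 and −0.26.

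The 44 other interferon-stimulated genes were mostly higher in NOD, with medians below those of the 10 in each lineage, a difference that was not tested. In the macrophage lineage 44 of 44 were higher and 21 past 2-fold (median 0.96), and in the endothelial lineage 39 of 42 and 12 (0.66). The T lineage had 35 of 41 and 9 (0.66), and the NK lineage 32 of 38 and 7 (0.45). The shares of all genes past 2-fold were 8.29%, 8.06%, 15.1% and 5.15% in the same order, so the T count lay nearest to its background. The largest macrophage ratios were those of *Ifi44* (20.7 and 0.650 CPM, 5.00), *Ifit1bl1* (2.86) and *Slfn1* (2.79), and the smallest those of *Trim25* (0.20), *Phf11b* (0.30) and *Uba7* (0.31). In the endothelial lineage *Slfn1* (23 UMIs and 1, 6.20), *Oas2* (2.40) and *Ifi27l2a* (2.38) were highest, and *Ifi35* (170 and 176 CPM), *Ifitm3* (1352 and 1387) and *Ube2l6* (22.9 and 23.0) lowest. *Ifitm3*, which blocks viral entry, stood at 370 and 104 CPM in the macrophage lineage (1.83), so the same gene was near equal in one lineage and higher in NOD in another.

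*Isg20*, an exonuclease of viral RNA, was the lowest in the T lineage (41.8 and 78.3 CPM, −0.91) and low in the NK lineage (−0.62), where *Ifitm3* stood at −0.76 and *Xaf1* at −0.46. The other low T-lineage genes were *Ube2l6* (−0.61) and *Ifi35* (−0.34). The highest in T were *Ifit1bl1* (2.51), and *Ifit3b* and *Oas2* with 77 and 32 UMIs in NOD and none in CD1. The highest in NK were *Ifi44* (2.94), *Ifi27l2a* (2.27) and *Ifit1bl1* (1.90). *Ube2l6* and *Uba7*, which carry Isg15 to its substrates, had smaller ratios than *Isg15* in each of the 4 lineages apart from the NK lineage, where *Ube2l6* was not compared.

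The GTPase genes differed most in the macrophage lineage, where 11 of 15 were past 2-fold higher (median 1.43) and *Iigp1* stood at 138 and 3.95 CPM (5.13). The endothelial lineage had 6 of 15 (0.95), the T lineage 4 of 15 (0.54) and the NK lineage 1 of 14 (0.46). The shares of all genes were 8.29% in the macrophage, 8.06% in the endothelial, 15.1% in the T and 5.15% in the NK lineage. Beside them the NK count is near the background. The T count, which includes 1 gene with no CD1 UMI, is too small to set the list apart from all genes. In the macrophage lineage the medians of the GTPase list (1.43) and of the 10 antiviral genes (1.57) were close. In the other 3 lineages the antiviral genes had the higher median, and no test of this difference was made.

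**Figure D5:**
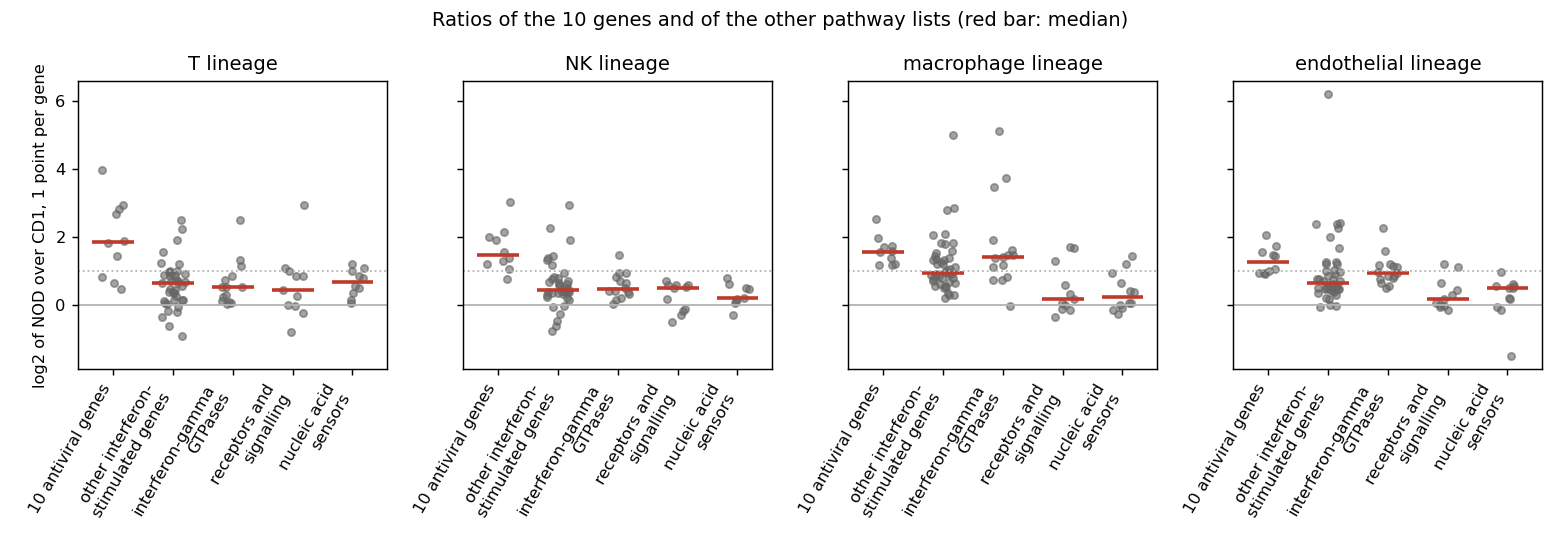
Log2 ratio of NOD over CD1 for each gene with at least 20 UMIs, grouped by list, 1 panel per lineage. Each point is a gene with a UMI in both libraries, the red bar is the median of the list and the dotted line marks 2-fold. The ligands, with at most 2 genes of 20 UMIs in a lineage, and the genes of Isg15 attachment are not plotted. The 10 antiviral genes have the highest median of the 5 lists plotted in each lineage, 1.57 beside 1.43 for the GTPase genes in the macrophage lineage. Their T median includes *Ifit3*, *Mx2*, *Oasl2* and *Rsad2*, each with 1 CD1 UMI.

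Smaller groups were formed within lineages, with lists chosen after values had been seen. Endothelial barcodes with arterial markers (*Gja5*, *Gja4*, *Hey1*, *Bmx*, *Sox17*) were at 1178 CPM for NOD and 452 for CD1 (1.38, 1.31 to 1.46). Those without arterial or venous UMIs stood at 1031 and 455 (1.18, 1.11 to 1.25). The few venous barcodes (*Ackr1*, *Selp*), 18 in NOD and 15 in CD1, were lower, at 590 and 200, and held 4 UMIs of *Rsad2* in NOD and 0 in CD1. Macrophage barcodes in cycle (*Mki67*, *Top2a*) stood at 768 and 218, and the others at 724 and 245. NOD *Cd8* T barcodes stood at 364 (341 to 387), above the *Cd4* barcodes at 272 (257 to 286) and the *Foxp3* barcodes at 227 (203 to 253). The log2 ratio was 0.96 (0.43 to 1.54) for *Cd8*, with 16 CD1 barcodes, and 1.23 (0.68 to 1.84) for *Cd4*, with 29. For *Foxp3* it was 0.90 (−0.66 to 3.18) and rests on 3 UMIs in 3 CD1 barcodes, an interval that includes 0.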

How the data were processed

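The values start from the counts that the authors deposited, UMI counts per gene and barcode with no cell filter. Per the labels' processing notes, Cell Ranger 8.0.0, Seurat 5.0.1 and R 4.3.1 were used with GRCm39. Here, barcodes with at least 500 UMIs and 300 genes were kept. Each went to the marker list (14 lists) with the most of its marker UMIs, given at least 3 such UMIs from 2 markers and 2/3 of all marker UMIs. UMIs were summed per lineage and scaled to 1000000. Levels have exact Poisson, ratios conditional binomial and shares Clopper-Pearson intervals at 95%. A gene with no UMI in CD1 and at least 20 in NOD was given no ratio. It counted as past 2-fold higher and was left out of the medians of lists. A floor of 3 counts gave the lowest level or share that a group could show and did not enter these ratios. No test was made, since each strain had 1 library. Doublets were kept in the values given. Scrublet (scanpy 1.11.5) marked the highest 0.8% per 1000 barcodes, 338 in NOD and 394 in CD1, which an alternative removed. Its own threshold would have marked 79 and 159. Drawing of 1000 UMIs per barcode used a fixed seed.

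Genes named in the text are the 10 members, list genes with a stated role, the 3 highest and 3 lowest other interferon-stimulated genes of each lineage and the 10 genes most correlated with the members. Genes named beside these were chosen after their values were seen. Values of 1 gene are not reported here. The members and lists were chosen with earlier results of these data known. Strain differences in sequence can change how reads map to the reference, which was not tested. Intervals were tried on counts simulated with counting error alone. Such counts lack the spread between cells and mice, so the trial cannot show how the intervals fare with it. The tools were Python 3.11.15, numpy 2.4.6, scipy 1.17.1, pandas 2.3.3 and matplotlib 3.10.9.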

Additional observations from a re-analysis of the deposited data

Results flagged for a closer look

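Outside the 4 lineages compared, the 10 genes were also higher in NOD in empty droplets and in fibroblast barcodes. Plasmacytoid dendritic barcodes stood lower in NOD (163 and 251 CPM), on 19 and 3 UMIs. In empty droplets, which hold free RNA and no cell, their summed level was 406 CPM in NOD (1987 UMIs) and 229 in CD1 (773 UMIs), a log2 ratio of 0.82 (0.70 to 0.94). *Oasl2* was the gene without a higher NOD level there (21.0 and 26.1 CPM). In fibroblast barcodes, the cells that make the collagen matrix, the sum was 597 CPM in NOD (353 UMIs, 57 barcodes) and 47.1 in CD1 (7 UMIs, 17 barcodes), a log2 ratio of 3.66 (2.61 to 4.99). The CD1 value rests on 7 UMIs and lies below the level of the CD1 empty droplets. Neither ratio has a replicate.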

How the results depend on the processing

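The summed log2 ratio stayed above 0 under all 13 alternatives in the T (0.79 to 1.61), macrophage (0.75 to 1.72) and endothelial (1.14 to 1.40) lineages and under 14 of 15 in the NK lineage (−0.080 to 1.99). A limit of 9/10 of marker UMIs gave 0.79 in T, 0.10 in NK, 1.72 in macrophage and 1.40 in endothelial barcodes, with 1 gene past 2-fold in T (of 5 with a value) and 1 in NK, *Ifit3* at −0.19 and *Usp18* at −0.80 in NK. A limit of 1/2 gave 1.50 in macrophage barcodes. NK barcodes without a T-marker UMI gave −0.080, or 0.54 without the 3 NOD and 2 CD1 barcodes of 3 or more genes among them, and those with such a UMI 1.99, all chosen after seeing the data. Subtracting free RNA gave 1.02 in T, 0.75 in macrophage and 1.27 in endothelial barcodes, with *Isg15* at −0.21 and *Irf7* at −0.95 in macrophages. Leaving out barcodes with 3 or more genes gave 0.93, 1.25 and 1.16. Averaging over barcodes gave 1.25 in NK and 1.40 in macrophage barcodes. Setting the median gene to 0 gave 1.51 in macrophage and 1.28 in endothelial barcodes, removing Scrublet barcodes 1.68 in macrophages, and leaving out the gene with the most UMIs 1.66 in macrophages (*Oasl2*) and 1.14 in endothelial barcodes (*Rsad2*). Endothelial barcodes without venous or arterial UMIs, chosen after seeing the data, gave 1.18. The share of NOD T barcodes with 3 or more genes, 1.94%, was 0.645% at 500 UMIs, 4.08% at 2000, 4.07% for 2 or more genes and 0.905% for 4 or more. Causes were not tested. Of 313 values of single genes, 283 stayed within their interval and 7 changed sign: the 4 named above and, with reported intervals that include 0, *Mx1* (−0.27) and *Usp18* (−0.10) in T and *Oasl2* (−0.61) in NK at 9/10. With 76 CD1 T barcodes, 4 of the 10 genes rest on 1 UMI there, so depth limits the T ratios. No paired analysis was possible because each strain had 1 library.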
